A study of Mus musculus with 3 samples.

Results

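Keratins are the intermediate filament proteins of epithelial cells, and 51 mouse keratin genes of the 30119 genes on the array were described here. A gene was taken as a member when the array design named a non-control probe Krt followed by a number and at most 1 letter. This rule used no measured value, but it was set with earlier results of these data known. These genes had 67 probes: 37 genes had 1 probe, 12 had 2 and 2 had 3. The RNA came from mouse embryoid bodies, aggregates of differentiating embryonic stem cells, kept in suspension in low attachment plates in medium lacking LIF and collected at day 10. The wild-type group was the control of the labels, and the mutant group was Dido3deltaCT+HADidoNT, in which the Dido3 protein is truncated at its C-terminus and the N-terminal region shared by the Dido proteins, with its PHD domain, is overexpressed. The label carries the letters HA, which commonly stand for an epitope tag. Each genotype had 3 biological replicates, cultured in parallel, and each of 3 two-colour arrays held 1 RNA of each genotype. Whether the mutant cells came from 1 clone, and what drives the overexpressed protein, is not given in the sources used here. The mutant was labelled with Cy3 on arrays 1 and 3 and with Cy5 on array 2.

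Keratin filaments are built from heterodimers of an acidic type I and a basic type II chain. Krt8 (type II) and Krt18 (type I) are the first pair made in the embryo and mark simple, single-layered epithelia, to which Krt7, Krt19, Krt20 and Krt23 also belong. Krt5 and Krt14 form the pair of the basal layer of stratified epithelia, Krt1 and Krt10 that of the differentiating epidermis, and a further group builds hair and the root sheath around it. The type I genes lie in a cluster on mouse chromosome 11 and the type II genes on chromosome 15, where Krt18 is the exception, a type I gene beside Krt8.

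The values turn on a few 60-base probes, which are shown because each ratio is the brightness of such a sequence in the mutant channel over that in the wild-type channel. They are printed 5′ to 3′ as in the scanner files, with mm9 positions of the files; no letters are in capitals. All 5 report on keratins whose mean was more than 1 log2 unit above 0.
Krt20 (chr11:99289776-99289835, minus strand): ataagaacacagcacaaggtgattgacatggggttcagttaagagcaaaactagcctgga
Krt19 (chr11:100002392-100002451, minus strand): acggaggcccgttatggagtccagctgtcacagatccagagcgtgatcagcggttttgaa
Krt18 (chr15:101862341-101862400, plus strand): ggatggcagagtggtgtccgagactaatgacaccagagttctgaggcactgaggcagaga
Krt8 (chr15:101828827-101828886, minus strand): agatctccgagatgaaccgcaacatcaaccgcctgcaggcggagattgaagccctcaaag
Krt13 (chr11:99982471-99982530, minus strand): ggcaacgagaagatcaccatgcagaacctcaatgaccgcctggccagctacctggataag
The Krt20 probe was the least GC-rich of these, at 43.3% G or C, against 55% in each of the other 4 probes. The Krt8 probe shown is the dimmer of the gene's 2 probes, and the values of both are given below.

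The scanner's flag for a signal well above background was set for 66.5%, 72.1% and 74.8% of all spots in the mutant channel of arrays 1, 2 and 3, and for 73.6%, 64.8% and 76.0% in the wild-type channel. On array 2 the local background of 25 spots passed 100 units, which was not seen on the other arrays, and it was limited to 100 units. Array 2 was also the only array with the mutant in Cy5, so what is particular to its dyes and what is particular to its replicate cannot be told apart. Of the 4 Dido1 probes, 1 was lower in the mutant, with a mean log2 ratio of -3.60 ± 0.17 (SD, n = 3 arrays, limma adjusted p = 0.0310) and 2 rose, by 3.03 ± 0.34 and 2.35 ± 0.40, with adjusted p = 0.0310 and 0.0342. The remaining Dido1 probe read -0.54 ± 0.93 (adjusted p = 0.494), and which probes lie in the truncated part was not tested.

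A keratin was counted as detected when at least 1 of its probes was well above background, by the scanner's own flag, on all 3 arrays of a genotype. By this measure 27 of 51 keratin genes were detected in the mutant and 24 of these also in the wild type. The other 3, Krt36, Krt86 and Krt6a, were above background on 2 of 3 arrays in the wild type, array 2 being the exception for each. Krt6b was detected in both genotypes only through different probes. The probe used for its ratio was above background on all 3 mutant arrays but not on array 2 in the wild type. Its other probe was above background on all 3 wild-type arrays and on 1 mutant array. No keratin was above background on all arrays of 1 genotype and on none of the other. A further 12 genes were above background on some arrays only: the root sheath keratins Krt26, Krt27, Krt28 and Krt74, the hair keratins Krt32, Krt34, Krt35 and Krt82, and the keratins of stratified skin Krt1, Krt2, Krt9 and Krt78. Of these 12, Krt32 was above background on 2 mutant arrays and Krt26 on 1, and on none in the wild type. Krt1, the suprabasal partner of Krt10, and Krt34, Krt35 and Krt74 were above background on 1 wild-type array each and on none in the mutant. The last 12 were above background on no array: Krt25, Krt71, Krt33a, Krt33b, Krt39, Krt40, Krt83 and Krt84 of hair and its sheath, and Krt4, Krt12, Krt76 and Krt77 of other stratified epithelia, Krt12 being the keratin of the cornea and Krt4 the mucosal partner of Krt13. For these genes no level was measured and no ratio is given.

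The genes tested were all 6 simple epithelial keratins, 13 of 22 basal and stratified keratins and 6 of 22 hair and root sheath keratins, where 19668 of the 30119 genes on the array were tested. Krt222, which belongs to no class used here, was tested as well, giving 26 genes. Krt42 was detected but not tested, since its probe was an outlier spot on array 2. Its other 2 arrays read 1.35 (array 1) and 2.00 (array 3) on the log2 scale, mutant over wild type. All 26 ratios are therefore conditional on detection in at least 1 genotype.

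Of the 26 keratins tested, 2 rose in the mutant, Krt19 and Krt20, and 0 fell, by limma's moderated test with Benjamini-Hochberg adjustment over 19668 genes at 0.05. Among all genes tested, 1.27% rose and 0.386% fell by the same rule, 1.65% together. At an adjusted p under 0.1 there were 6 higher keratins, Krt8, Krt13, Krt18 and Krt85 beside the 2 called, against 4.9% of all genes. At an unadjusted p under 0.05 there were 6 higher keratins and 1 lower, beside 12.1% higher and 7.77% lower of all genes. The ratio was above 0 on all 3 arrays for 10 keratins and below 0 on all 3 for 2, Krt23 and Krt10, against 22.5% and 19.1% of all genes. The signs were mixed for the other 14. The median log2 ratio was 0.099 over the 26 keratins and -0.013 over all genes, and 18 of the 26 means lay within 0.5 of 0. In the reported setting the keratin means were thus spread around 0. Of these, 5 lay above 1, where 6.81% of all genes did, and none below -1, where 4.39% did. Some dim keratins moved with the setting. By the scanner's log ratio Krt36 read 0.98, against 0.34 here, and Krt17 read -0.59, against -0.10. Krt6a reached 0.95 over the alternatives, against 0.42, while Krt5 stayed between -0.13 and -0.06. None of these was called in any alternative setting.

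**Figure D1:**
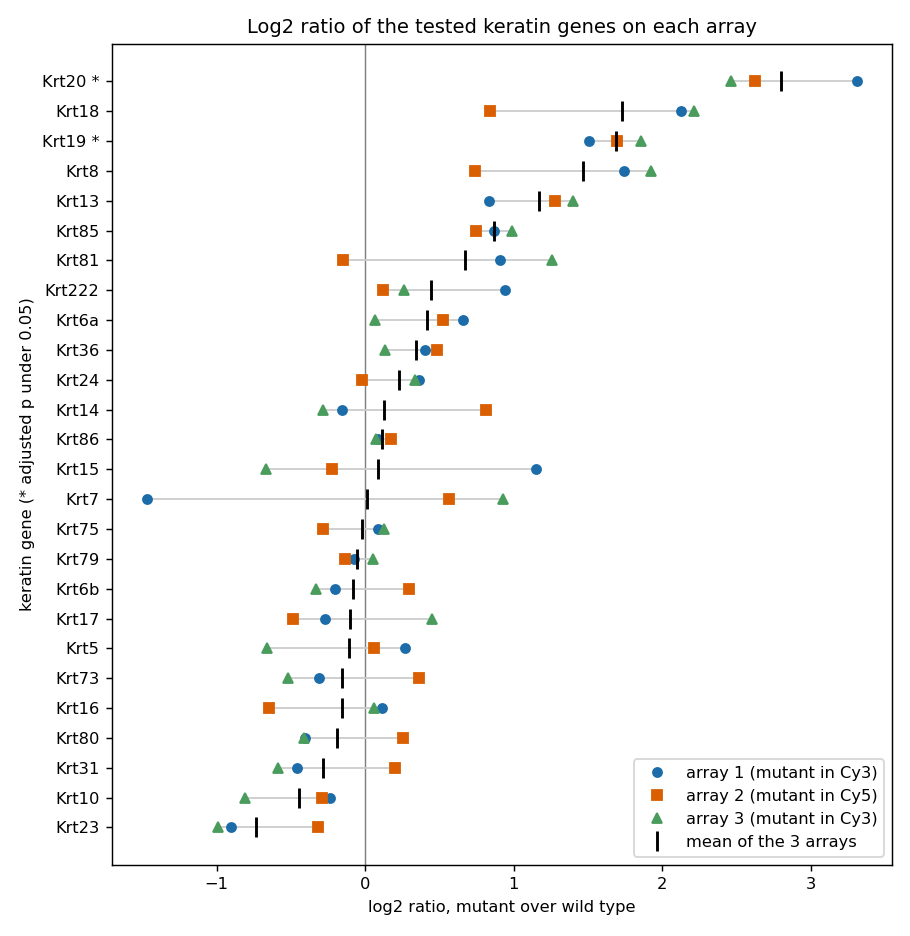
Log2 ratio of mutant over wild type of the 26 tested keratin genes, ordered by mean and not by class. Points are the 3 arrays and short vertical bars their means. Krt20, at 2.80, and Krt18, Krt19 and Krt8, between 1.47 and 1.73, lie above 0 on every array, while Krt7 runs from -1.47 to 0.93 and most stratified and hair keratins lie around 0.

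The simple epithelial keratins held the highest means of the tested keratins, those of Krt20, Krt18, Krt19 and Krt8, and also the lowest, that of Krt23. Of the 6, 4 were higher on all 3 arrays, 1 was lower on all 3 and 1 was mixed. The median was 1.58 and the means ran from -0.74 to 2.80. Krt20, a type I keratin of intestinal epithelium and of the urothelial surface, had a normalized signal of 175, 458 and 202 units in the wild type on arrays 1, 2 and 3. In the mutant it had 1733, 2820 and 1116 units. Every mutant signal stood above every wild-type signal, although array 2 was brightest in both genotypes. The share of all genes with such a separation was not counted, here or for the keratins below. The log2 ratios of 3.31, 2.62 and 2.46 gave a mean of 2.80 ± 0.45 (SD, n = 3 arrays), a 6.96-fold difference with a 95% interval of 2.16 to 3.44 on the log2 scale and adjusted p = 0.0354.

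Krt19, a type I keratin of simple epithelia that lacks most of the tail domain, was bright in both genotypes. Its wild-type signal was 10148, 9200 and 5828 units and its mutant signal 28782, 29836 and 21123 units. The groups did not overlap, and array 3 was lowest in both. The ratios of 1.50, 1.70 and 1.86 were the closest together of the keratins above 1, with a mean of 1.69 ± 0.18, a 3.22-fold difference (95% interval 1.19 to 2.18, adjusted p = 0.0431). Neither Krt19 nor Krt20 was called when the local background was not limited (means of 1.67 and 2.41), in the authors' deposited values (1.57 and 2.15) or without the filter on dim probes, with adjusted p up to 0.168 and 0.190 over these settings. The direction stayed the same on each array, but neither was called without replicate 1 or without replicate 3 (adjusted p up to 0.246 and 0.210).

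Krt18 and Krt8 code for the partners of a single filament. Krt18 read 35688, 28511 and 13147 units in the wild type and 155761, 50970 and 61034 in the mutant. Krt8 read 44216, 38681 and 29055 units in the wild type and 147647, 64483 and 110073 in the mutant. For both genes the mutant was above all wild-type signals on every array, and the difference was smallest on array 2. The Krt18 ratios were 2.13, 0.84 and 2.21, a mean of 1.73 ± 0.77, or 3.31-fold, which missed the threshold at adjusted p = 0.0824 (95% interval 0.84 to 2.61). The Krt8 ratios were 1.74, 0.74 and 1.92, a mean of 1.47 ± 0.64, or 2.76-fold, with adjusted p = 0.0872 and an interval of 0.69 to 2.25. The pair thus had the same order over the arrays, which share their libraries and dyes, and array 2 carried the spread in both. The second Krt8 probe, the one whose sequence is shown, tested among probes, read 1.05, 0.74 and 1.50 (mean 1.09 ± 0.38, adjusted p = 0.0842).

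**Figure D2:**
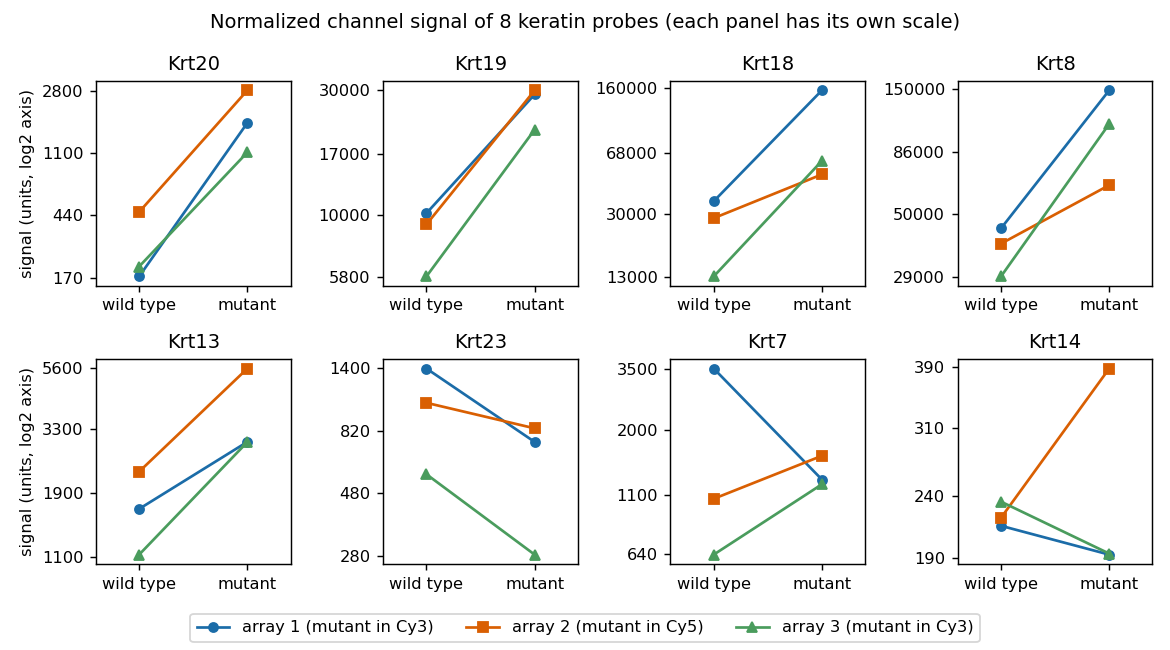
Normalized channel signal in units, on a log2 axis with a scale of its own in each panel, of 8 keratins in wild type and mutant; a line joins the 2 channels of an array. For Krt20, Krt19, Krt18, Krt8 and Krt13 all 3 mutant points lie above all wild-type points, and the share of all genes with this separation was not counted. The Krt7 line of array 1 falls from 3511 to 1270 units while the other 2 lines rise.

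The other simple epithelial keratins did not share this. Krt23, a type I keratin of glandular and intestinal epithelia, read 1396, 1041 and 564 units in the wild type and 745, 837 and 284 in the mutant. It was lower in the mutant on each array, although the groups overlap across arrays. The ratios of -0.91, -0.31 and -0.99 had a mean of -0.74 ± 0.37, and the difference was not called (adjusted p = 0.177). Krt7, a type II partner of Krt19 in ductal epithelia, read 3511, 1065 and 639 units in the wild type but 1270, 1579 and 1216 in the mutant. The mutant signals were close together and the wild-type signals far apart, with array 1 the reverse of the others. The ratios of -1.47, 0.57 and 0.93 averaged 0.0099 ± 1.29, and the 95% interval of -1.34 to 1.36 includes the mean seen for Krt13.

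Among the 13 tested keratins of basal and stratified epithelia 0 were called, 2 were higher on all arrays, 1 was lower on all and 10 were mixed, with a median of -0.054. Krt13, the type I keratin of non-keratinized mucosa, was the highest. Its signal was 1662, 2290 and 1122 units in the wild type and 2958, 5558 and 2954 in the mutant, with no overlap. The ratios of 0.83, 1.28 and 1.40 had a mean of 1.17 ± 0.30, or 2.25-fold (adjusted p = 0.0699, 95% interval 0.62 to 1.72). The gene's other probe read 1.36, 0.91 and 0.89, with a mean of 1.06 ± 0.27 (adjusted p = 0.0738 among probes). Unlike in Krt8 and Krt18, array 2 was not the lowest here.

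The defining pair of basal keratinocytes had means near 0. Krt14 read 214, 221 and 235 units in the wild type and 192, 388 and 193 in the mutant, so that array 2 alone was higher. Its ratios of -0.16, 0.81 and -0.28 averaged 0.12 ± 0.60 (95% interval -0.63 to 0.87). Krt5 read 0.27, 0.061 and -0.66, a mean of -0.11 ± 0.49, with an interval of -0.78 to 0.56. Both intervals lie below the mean of Krt19, and each gene had limma adjusted p = 0.857. Krt5 was dim, at 140, 119 and 114 units in the mutant and 116, 114 and 180 in the wild type. Its other probe was above background on no array. How far the offset of 50 used in processing lowered the ratios of dim probes was not tested, so a larger rise in RNA is not excluded.

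The remaining stratified keratins varied in sign. Krt15, the other type I keratin of the basal layer, read 1.15, -0.22 and -0.67 and averaged 0.087 ± 0.95 (adjusted p = 0.933). Krt17, which is induced in injured or activated epidermis, read -0.27, -0.49 and 0.45 and averaged -0.10 ± 0.49 (adjusted p = 0.868). Krt16, induced alongside it, averaged -0.16 ± 0.43 (adjusted p = 0.769). Their type II partner Krt6a read 0.66, 0.52 and 0.067, a mean of 0.42 ± 0.31, and was the second gene of this class that was higher on all arrays (adjusted p = 0.369). Krt10, the suprabasal type I keratin, read -0.23, -0.29 and -0.81, a mean of -0.45 ± 0.32 (adjusted p = 0.341), but its other probe read 0.15, 0.34 and 0.014. The direction for Krt10 therefore depended on the probe. The other probe was dim, at 92 to 155 units in the mutant and 91 to 139 in the wild type. It was not above background in the wild type on array 2. The probe used for the gene read 370 to 536 units in the mutant and 435 to 941 in the wild type. Krt24, Krt6b, Krt75, Krt79 and Krt80 had means from -0.19 to 0.23.

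The 6 tested hair and root sheath keratins had a median of 0.22, with 3 higher on all arrays and none called. Krt85, a type II keratin of the hair matrix, read 0.87, 0.74 and 0.99, a mean of 0.87 ± 0.12 (adjusted p = 0.0941). That value comes from a probe to which the files give no position. Its signal was 4654, 4462 and 3644 units in the wild type and 8494, 7470 and 7231 in the mutant, with no overlap. A second, mapped Krt85 probe read -0.064, -0.17 and -0.36, a mean of -0.20 ± 0.15 (adjusted p = 0.607 among probes), so the probes of this gene did not share a direction. The third was above background on no array in the mutant and on 2 in the wild type. Krt81, also of hair, read 0.91, -0.15 and 1.26, a mean of 0.67 ± 0.73 (adjusted p = 0.348). Krt36 and Krt86 averaged 0.34 ± 0.19 and 0.11 ± 0.054, and Krt31 and Krt73 averaged -0.28 ± 0.42 and -0.16 ± 0.46, none of them called.

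**Figure D3:**
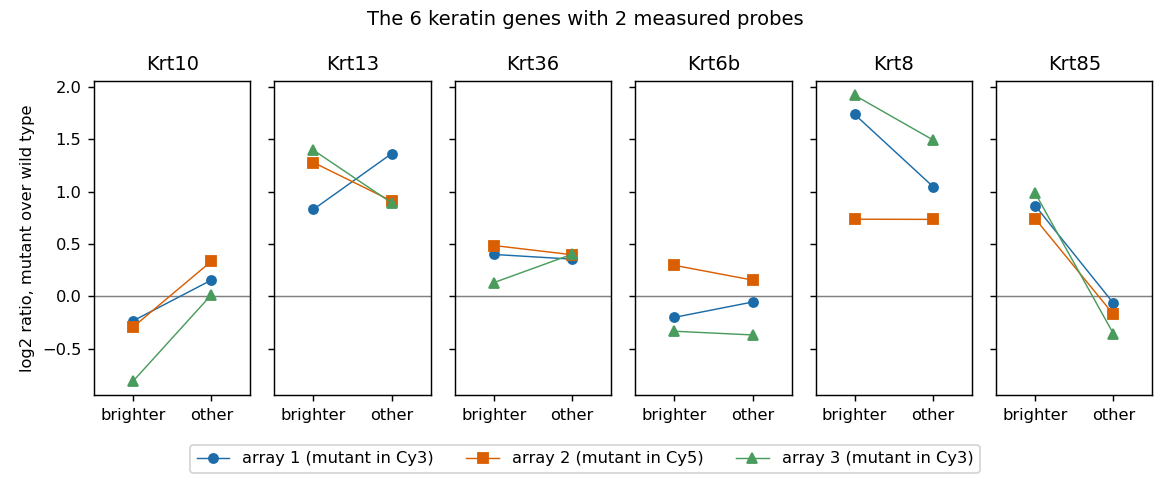
Log2 ratio of mutant over wild type on each array for the kept probes of keratin genes with more than 1 kept probe. The probes of Krt8 and Krt13 lie on the same side of 0, between 0.74 and 1.92 in Krt8, while those of Krt10 and Krt85 lie on opposite sides.

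Hair keratins are close copies of each other, and how far the RNA of 1 of these genes bound the probe of another was not tested, so the values of Krt81 and Krt85 are uncertain as to gene. RefSeq names the gene of the Krt83 probe Krt87. Krt222, a keratin-related gene of the chromosome 11 cluster, is also uncertain, since its kept probe holds a CA repeat, in capitals here.
Krt222 (chr11:99095480-99095539, minus strand): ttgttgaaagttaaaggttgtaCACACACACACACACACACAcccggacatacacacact
This probe shared a run of 20 letters or more with 25 other probes of the array, and the gene's other probe was above background on no array. It read 0.94, 0.12 and 0.26 (mean 0.44 ± 0.44, adjusted p = 0.398).

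By position, the 2 called genes and Krt13 lay in the chromosome 11 cluster, but not in 1 block. Krt13, Krt15 and Krt19 are neighbours there, with means of 1.17, 0.087 and 1.69, so that the gene between the 2 higher ones had a mean near 0. Krt20 lies beside Krt12, which was above background on no array, and Krt23, with a mean of -0.74. On chromosome 15 the highest means, those of Krt8 and Krt18, stand at the end of the cluster. The gene before them, Krt78, was not tested, and the nearest with a ratio is Krt79 at -0.054. The median was 0.18 over the 14 tested type I genes and -0.0076 over the 12 type II genes. No pair of neighbours was tested against each other.

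**Figure D4:**
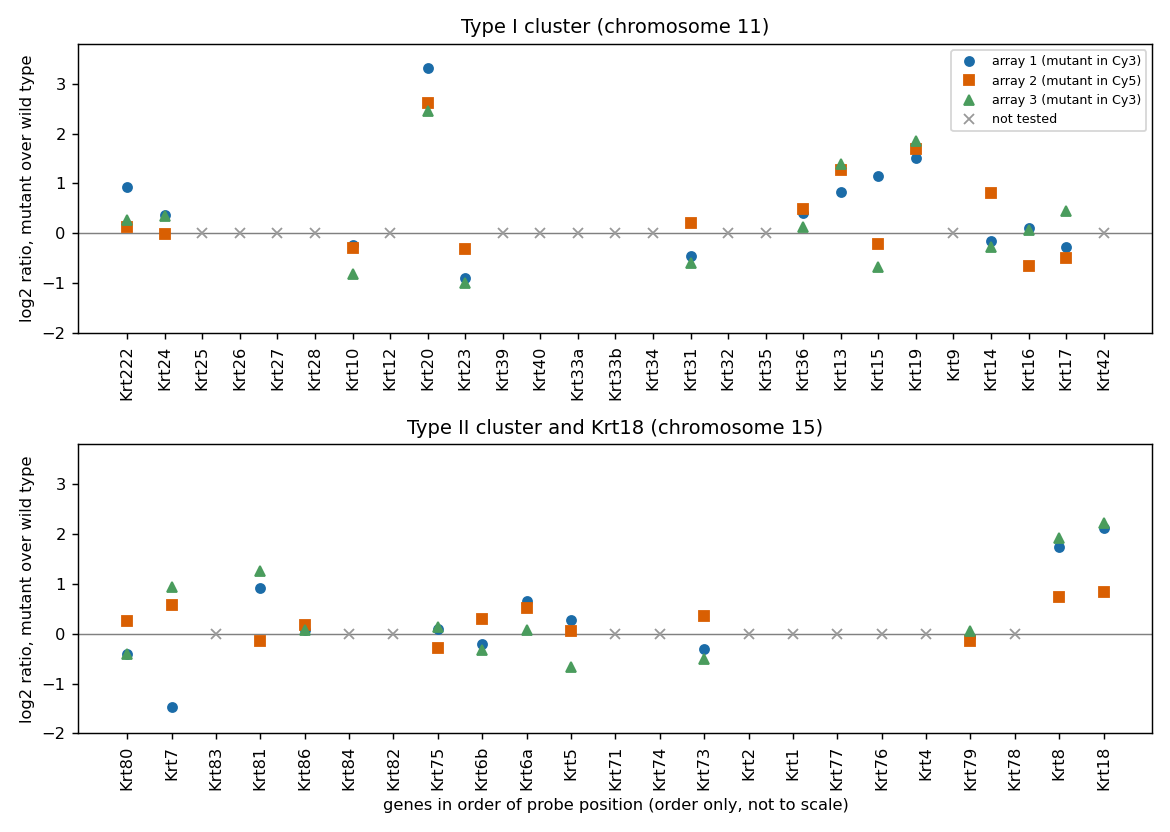
Log2 ratio of mutant over wild type of the tested keratins in their order along the clusters of chromosomes 11 and 15. Points are the 3 arrays. Grey crosses mark keratins that were not tested and carry no value, and Krt85 is left out. Krt20, with a mean of 2.80, stands between genes with no ratio or with a mean of -0.74. Krt8 and Krt18, with means of 1.47 and 1.73, close the chromosome 15 order.

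Promoter sequences of 3 of the keratins that were higher on all arrays are shown because they lie in separate clusters or form a filament pair. They are from RefSeq on GRCm38.p6, from 250 bases before the start to 20 after it, read along the gene, with capitals marking a match to TATAAA on either strand.
Krt20 (chr11:99438134-99438403, minus strand): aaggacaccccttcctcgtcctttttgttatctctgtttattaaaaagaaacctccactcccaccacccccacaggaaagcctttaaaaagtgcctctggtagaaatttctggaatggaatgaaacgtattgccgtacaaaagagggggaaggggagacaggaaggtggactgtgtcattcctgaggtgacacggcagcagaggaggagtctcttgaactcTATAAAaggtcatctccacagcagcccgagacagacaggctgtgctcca
Krt8 (chr15:102004323-102004592, minus strand): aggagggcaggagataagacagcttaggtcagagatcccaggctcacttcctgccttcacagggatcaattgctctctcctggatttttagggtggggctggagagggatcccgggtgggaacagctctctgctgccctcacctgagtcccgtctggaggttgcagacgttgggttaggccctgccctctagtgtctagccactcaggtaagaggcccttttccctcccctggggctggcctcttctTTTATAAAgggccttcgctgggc
Krt18 (chr15:102027966-102028235, plus strand): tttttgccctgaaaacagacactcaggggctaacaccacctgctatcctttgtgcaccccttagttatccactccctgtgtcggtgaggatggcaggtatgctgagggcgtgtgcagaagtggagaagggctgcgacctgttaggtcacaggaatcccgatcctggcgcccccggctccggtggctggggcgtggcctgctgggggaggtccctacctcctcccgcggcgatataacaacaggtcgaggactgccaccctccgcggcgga
The Krt20 promoter held TATAAA 29 bases before the start. Krt8 held it on both strands, in overlapping matches that begin 3 bases and 1 base before the annotated start and run across it. These letters are not in the Krt18 window. The table held 35 promoters of 34 keratin genes, of which 15 were tested. TATAAA was in 17 of the 35 (48.6%), against 12.9% of all 32851 promoters, while GGGCGG was in 5.71% against 34.1%. CCAAT was in 37.1% against 35.4%, and TGANTCA, the AP-1 motif, in 5.71% against 7.23%. These shares describe letters in a window, and no binding was measured here.

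Other genes of the keratin network were read from lists of related genes. None of the 13 tested linker and desmosome genes, which anchor keratin filaments at cell junctions, was called, where 1.65% of all genes were. Of the 13, 6 were higher on all 3 arrays and none was lower on all, with a median of 0.15. Among all genes, 22.5% were higher and 19.1% lower on all 3 arrays. Dsc2, a desmosomal cadherin, read 2.47, 0.94 and 2.20 (mean 1.87 ± 0.82, adjusted p = 0.0769). Dsp, which links keratins to the desmosome, read 2.15, 0.56 and 1.74 (mean 1.48 ± 0.83, adjusted p = 0.119), and Dsg2, the other cadherin, averaged 1.02 ± 0.41 (adjusted p = 0.109). Dsc2 and Dsp had their lowest ratio on array 2, as had Krt8 and Krt18.

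The remaining lists held no called gene either. Their counts stand beside 22.5% of all genes higher and 19.1% lower on all arrays. The 18 genes of simple epithelium identity had a median of 0.33, with 7 higher and 2 lower on all arrays. The tight junction gene Cldn6 averaged 1.27 ± 0.13 (adjusted p = 0.0533), Cldn3 -1.45 ± 0.71 (adjusted p = 0.102) and the membrane protease gene St14 0.93 ± 0.33 (adjusted p = 0.113). Of the epidermis and surface ectoderm genes 15 of 20 were tested, with a median of -0.21, 4 higher and 2 lower on all arrays. The transcription factor genes Tfap2c and Gata3 averaged -1.66 ± 0.91 and 1.53 ± 1.12 (adjusted p = 0.110 and 0.171). The keratinocyte gene Sfn averaged -0.96 ± 0.89 (adjusted p = 0.263), and the desmosomal cadherin genes Dsg1a, Dsg3 and Dsc3 were above background on no array. Among 14 tested intermediate filament genes outside the keratins the median was 0.016, with 2 higher and 2 lower on all arrays. The lens filament gene Bfsp1 read 1.26, 1.61 and 1.30 (mean 1.39 ± 0.19, adjusted p = 0.0517), and the neurofilament gene Nefm averaged -1.33 ± 0.69 (adjusted p = 0.114). Bfsp2, also of the lens, averaged -0.71 ± 0.59 (adjusted p = 0.265).

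Markers of some cell types that make simple keratins were mostly higher in the mutant as well. Those of cardiac muscle and mesenchyme, given below, were mostly higher too. In whole embryoid bodies a change in the number of cells of a type and in RNA per cell cannot be told apart. Among all genes, 22.5% were higher on all 3 arrays and 1.27% were called higher. The 6 visceral endoderm markers, among them the secreted protein genes Ttr and Apoa1, had a median of 2.34, and their summed signal was 36205 to 138764 units in the wild type and 247043 to 398660 in the mutant. Of these, 5 were higher on all arrays and 1 was called, Ttr, at 2.59 ± 0.69 (adjusted p = 0.0459). The 6 gut endoderm markers summed to 25590 to 34664 units in the wild type and 61789 to 82249 in the mutant, with 5 higher on all arrays and 3 called. Tff3, a secreted peptide gene of intestinal epithelium, was called at 3.99 ± 1.11 (adjusted p = 0.0432). Foxa1, an endoderm factor, was called at 1.78 ± 0.34 (adjusted p = 0.0466), and Cdx2, an intestinal and trophoblast factor, at 2.14 ± 0.56 (adjusted p = 0.0481). Cldn6, Sox17 and Foxa2 of this list were not called. Sox17 averaged 0.50 ± 0.50, with -0.0054 on array 2 (adjusted p = 0.374), and Foxa2 averaged 0.38 ± 0.27 (adjusted p = 0.391).

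Trophoblast markers also summed higher in the mutant, from 10527 to 14059 units against 3021 to 5663, but their members did not share a direction. Of 6 tested genes, 4 were higher on all arrays and 1, Elf5, was lower on all (-0.32 ± 0.16). The shares among all genes were 22.5% and 19.1%. Prl3d1 was mixed (0.018 ± 1.72). The 2 called were Cdx2, which is also in the gut endoderm list, and the transcription factor gene Hand1 (1.82 ± 0.30, adjusted p = 0.0436). Tpbpa was above background on no array. The 4 mesothelium markers summed to 2676 to 3405 units in the mutant and 1173 to 2652 in the wild type, and none was called. None of them was higher on all arrays. Msln was lower on all (-0.69 ± 0.56), and Lrrn4, Upk3b and Wt1 were mixed in sign. Epidermis markers, Krt5, Krt14 and Krt10 among them, summed to 3420 to 4492 units in the mutant and 3914 to 4600 in the wild type, with none of the 5 tested called. In the other marker lists cardiac muscle had a median of 2.69, with 3 of 4 higher on all arrays and 1 called. Mesenchyme had a median of 2.36, with 2 of 3 tested higher on all arrays and 1 called. The neural list had -2.93 with 5 of 5 lower on all arrays and none called, and the pluripotent list -0.64 with none of 3 called. The part of these cell types in the keratin ratios was not tested.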

How the data were processed

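Each array held labelled RNA of 1 mutant and 1 wild-type culture. The deposited scanner files hold spot and background intensity, a log10 ratio of red over green, and flags for outliers and for spots well above background, written by version 10.7.3.1 of Agilent Feature Extraction, per the file headers. The authors' deposited table holds log2 ratios. Taken as log2, mutant over wild type, its columns followed the scanner ratios with slopes of 0.863, 0.877 and 0.924 over 13541 bright spots, and had medians of -0.01, 0.02 and -0.01. The submitters' processing notes name limma. How background and centring were handled is not given in the sources used here.

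With limma 3.58.1 in R 4.3.3, background was limited to 100 units, corrected with normexp (offset 50) and loess-normalized within arrays. Ratios were turned as mutant over wild type from the dyes in the labels. Control spots and outliers were removed and repeated spots averaged. Probes entered the test (25497 of 39429) if they had a value on every array and either genotype was well above background on every array, and the brightest kept probe stood for a gene (19668 genes). Probes were named through RefSeq by accession (27234), symbol (3576) or synonym (565), and 8054 kept the file's name. The test was limma's lmFit and eBayes on the 3 ratios against 0 (two-sided), adjusted by Benjamini-Hochberg, with a threshold of 0.05. Channel signals are after loess and Aquantile scaling. The arrays shared 1 slide. The p-values measure the spread over 3 arrays, with 4.75 degrees of freedom including the prior. The fit was tested on simulated data. The members, the gene lists and the background limit were chosen with earlier results of these data known. Values are given per array for called keratins and for 12 keratins of simple and skin epithelia where measured. For up to 10 others with the smallest p they are given per array or only as a mean. The same holds for the 3 members of each further list with the smallest p. A comparison of the letters of some hair keratin probes is not reported here.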

Additional observations from a re-analysis of the deposited data

How the results depend on the processing

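The count of 2 higher keratins fell to 0 when the local background was not limited, with the authors' deposited values and with no filter on dim probes, and rose to 6 with a dye term and to 6 at a threshold of 0.1. Of all genes, 325 in the reported setting, these gave 0, 0, 0, 2534 and 1352, while an offset of 16 gave 730, the scanner's log ratio 766 and an intensity trend 602. At an unadjusted p under 0.05 the settings with 0 calls had 3015, 3840 and 4831 genes by limma. Krt19 ranged from 1.57 to 1.69 (adjusted p from 0.0146 to 0.168) and Krt20 from 2.15 to 3.24 (adjusted p from 0.0142 to 0.190). Leaving out 1 replicate gave 0 to 7 higher keratins (0 without replicate 1 or 3, 7 without replicate 2), 0 to 1 lower (Krt23, without replicate 2) and 0 to 5082 genes in all, with 1658 and 2371 at an unadjusted p under 0.05 where there were 0. The arrays left without replicate 2 share one dye orientation, in which genotype and dye cannot be told apart, and a dye term fits array 2 exactly. The keratin median of 0.099 became 0.21 with the scanner's ratio and -0.0026 with no filter, which also adds the dim genes, and 0.097 to 0.17 with 1 replicate left out. In the related gene lists the calls went from 0 to 2 (offset 16), 1 (scanner's ratio), 12 (dye term), 1 (intensity trend) and 3 (threshold 0.1), and to 0 to 21 with 1 replicate left out.

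The keratins that changed sign were called in neither setting. Unlimited background gave Krt14 -0.10, Krt17 0.048, Krt7 -0.051 and Krt75 0.065. Krt7 read -0.049 with the scanner's ratio and -0.067 in the authors' values, Krt6b 0.014 with a dye term and Krt79 0.00064 with median centring. With 1 replicate left out, Krt15 ran from -0.45 to 0.47, Krt14 from -0.22 to 0.33, Krt16 from -0.30 to 0.086, Krt17 from -0.38 to 0.089, Krt7 from -0.45 to 0.75, Krt75 from -0.10 to 0.11, Krt6b from -0.27 to 0.048, Krt5 from -0.30 to 0.17 and Krt73 from -0.41 to 0.025. Apart from the dye term and left-out replicates, the cause of these shifts was not tested. The reported test is itself paired by array, since each ratio sets 1 mutant against 1 wild-type RNA of the same array. No paired analysis was possible beyond this one, because a replicate block would take up every ratio, and no slide block because there was 1 slide. The number of arrays and the signal over background of dim hair and skin keratins limit the precision.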
